A study of Mus musculus with 6 samples.

Results

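Transcript levels of 10 genes for receptors and co-receptors of Wnt proteins were compared between genotypes in mouse mesenchymal stem cells (MSCs), the stromal cells of bone marrow that can form osteoblasts. The genes were taken by name: 6 Frizzled genes (Fzd1, Fzd2, Fzd4, Fzd5, Fzd7 and Fzd8), Lrp5 and Lrp6, and Ror1 and Ror2. They are 10 of the 20071 Ensembl gene IDs with counts, and all 10 passed the filter on low counts, as did 13733 IDs in all. MSCs came from the femurs of 6-week-old C57BL/6J mice, either Pcif1fl/fl littermates, which carry loxP sites around exons 5 to 7 of Pcif1 and no Cre (control), or Prrx1-Cre;Pcif1fl/fl mice (CKO). Prrx1-Cre is a recombinase known to be active in limb mesenchyme and not in blood-derived cells. Both groups carried the floxed allele, and both were kept for 7 days in osteogenic medium, in which dexamethasone was at 100 nM, β-glycerophosphate at 5 mM and ascorbic acid at 50 µg/mL. Poly(A) RNA was sequenced in 3 libraries per genotype. The labels do not say that these were separate mice or cultures, so p-values measure the spread between these libraries, which may be technical.

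Wnt proteins bind the cysteine-rich domain of a Frizzled, a receptor with several membrane passes. With Lrp5 or Lrp6 beside the Frizzled, the cell stabilizes beta-catenin, which turns on target genes and is known to drive bone formation; with Ror1 or Ror2, Wnt5a signals without beta-catenin and sets cell shape and polarity. PCIF1, the enzyme whose gene was floxed, methylates the base after the cap of an mRNA to m6Am where that base is an adenosine. The annotated starts of the receptor genes are therefore shown first.

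Of the 10 genes, Fzd2, Fzd8, Lrp5 and Lrp6 were missing from the set of RefSeq promoters used (GRCm38.p6), which held a start for the other 6. Each line holds 30 bases around that start, 5′ to 3′ on the gene's strand, and the capital is the first transcribed base.
Fzd1, chr5:4758202-4758231, minus strand: tgccaccgccaccacTacttcctccacctc
Fzd4, chr7:89404351-89404380, plus strand: cctccagcgccacagAgcgctggggcggtg
Fzd5, chr1:64737736-64737765, minus strand: gacccgggcggggcgGgagagggcagtcag
Fzd7, chr1:59482132-59482161, plus strand: tctagccaccagtgcGgctcccaggcgtta
Ror1, chr4:100095776-100095805, plus strand: cccgcctctgccattGgtccgggctggggc
Ror2, chr13:53286110-53286139, minus strand: tgcgcgcccgcccgcGttccgccccccctg
Fzd4 alone of these 6 had an A at that position, as did 34.4% of the 32851 mouse starts in that set. The letter depends on the annotation. GENCODE M21 places the Fzd4 start 11 bases upstream, at a C, and among the 10 genes gives an A to Fzd8 only. Where transcripts began in these cells was not measured by counts per gene. The 300 bases around the RefSeq starts held 54.0% G or C for Fzd1 and between 62.3% and 75.7% for the other 5 genes shown. The median over all promoters of the set was 52.7%.

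The libraries held 20258209 to 28227696 counts. Control replicate 3 stood apart from the other 5 libraries: mitochondrial genes took 3.63% of its counts against 1.40% to 1.57%. A chi-square comparison of its counts with those of the other control libraries gave 90.1 and 106 per gene, against 2.86 to 10.5 for the other pairs of the same genotype, so no library repeats another. Pcif1 was at 42.8, 41.7 and 39.3 CPM (counts relative to library size, with TMM scaling) in control and 39.2, 37.8 and 39.7 CPM in CKO libraries, and a count over the whole gene does not isolate exons 5 to 7, so it does not check the deletion. Control below means the libraries labelled WT, and CKO those labelled CKO. Xist was at 232 to 443 CPM in control and 0.722 to 1.79 CPM in CKO libraries. Uty, Kdm5d, Eif2s3y and Ddx3y, which lie on chromosome Y, were counted in all 6 libraries, each at a greater level in every CKO than in every control library, and Ddx3y and Eif2s3y passed the test. Ddx3y was at 48.4 to 62.2 CPM in control and 99.1 to 104 CPM in CKO. Control libraries thus held both Xist and Y-linked RNA, and sex of the cells and genotype cannot be told apart; none of the 10 genes lies on chromosome X or Y. Of 12 macrophage markers in the counts, all tested, 0 were lower and 1 was higher in CKO, and their summed level was 31586 to 35151 CPM in control and 32638 to 35791 CPM in CKO, above the 9302 to 12307 CPM and 14920 to 16097 CPM of 10 mesenchymal markers. The cultures labelled MSC thus held abundant RNA of macrophage genes. Of the 10 mesenchymal markers, 2 were lower (Eng and Pdgfra) and 5 higher in CKO; of 11 tested osteoblast markers 3 were lower and 1 higher, of 8 adipocyte markers 5 were lower, of 9 smooth muscle and pericyte markers 2 were lower, and of 12 endothelial markers edgeR called 0 (DESeq2, total-count scaling, no filter and leaving out control replicate 2 each called 1 lower). The summed levels in control and CKO were 14611 to 20759 and 17912 to 26677 CPM for osteoblast, 791 to 837 and 671 to 871 CPM for adipocyte, 569 to 726 and 598 to 624 CPM for smooth muscle and pericyte, and 31.0 to 43.9 and 28.1 to 32.0 CPM for endothelial markers. At an unadjusted p under 0.05 by edgeR, 1 macrophage marker was lower and 2 were higher, and 1 endothelial marker was lower and 1 higher. Over all genes tested, 11.8% were lower and 9.56% higher at that threshold, and 4.51% and 2.88% at an adjusted p under 0.05. These counts moved when 1 library was left out: the higher mesenchymal markers numbered 1 without CKO replicate 1, 2 without control replicate 2, CKO replicate 2 or CKO replicate 3, and 6 without control replicate 3. Without control replicate 3, 1 macrophage marker was lower and 3 were higher, 1 endothelial marker was lower and 1 higher, 4 smooth muscle and pericyte markers were lower and 1 higher, and 2 adipocyte markers were higher. Without control replicate 2 or any CKO replicate, 1 smooth muscle and pericyte marker was lower, and without control replicate 2, CKO replicate 1 or CKO replicate 3, 0 osteoblast markers were higher. Of 2 tested neutrophil markers 1 was higher, a call lost when any library other than control replicate 3 was left out, with summed levels under 2 CPM. Plin1 (adipocyte) was at 0 counts in all CKO libraries, and no tested marker was at 0 in all 6. The part of these cell types in the results on receptors was not tested.

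In CKO, 5 of the 10 genes were lower at an adjusted p under 0.05 (Fzd1, Fzd4, Fzd5, Fzd8 and Ror1) and 0 were higher, by the quasi-likelihood test of edgeR, with p-values adjusted over all genes tested by the Benjamini-Hochberg method. Over all genes tested, 4.51% were called lower and 2.88% higher. At an unadjusted p under 0.05, 7 of the 10 were lower and 0 higher, against 11.8% and 9.56% of all genes. Ror1 and Fzd4 passed a log2 fold change of -1 as well, as did 2.5% of all genes. In 8 of the 10 genes every CKO library lay below every control library, a pattern that 15.7% of all genes showed, and in 0 of the 10 did every CKO library lie above, against 15% of all genes. The median log2 fold change of the 10 genes was -0.36, and that of all genes tested was 0.0017. DESeq2 called the same 5 genes, with 5.26% of its tested genes lower. Without control replicate 3, edgeR called 7 of the 10 genes lower (Fzd7 and Lrp6 in addition), while 10.4% of all genes were then called lower. In bulk RNA, fewer cells that express a receptor and less of its RNA per cell cannot be told apart.

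**Figure D1:**
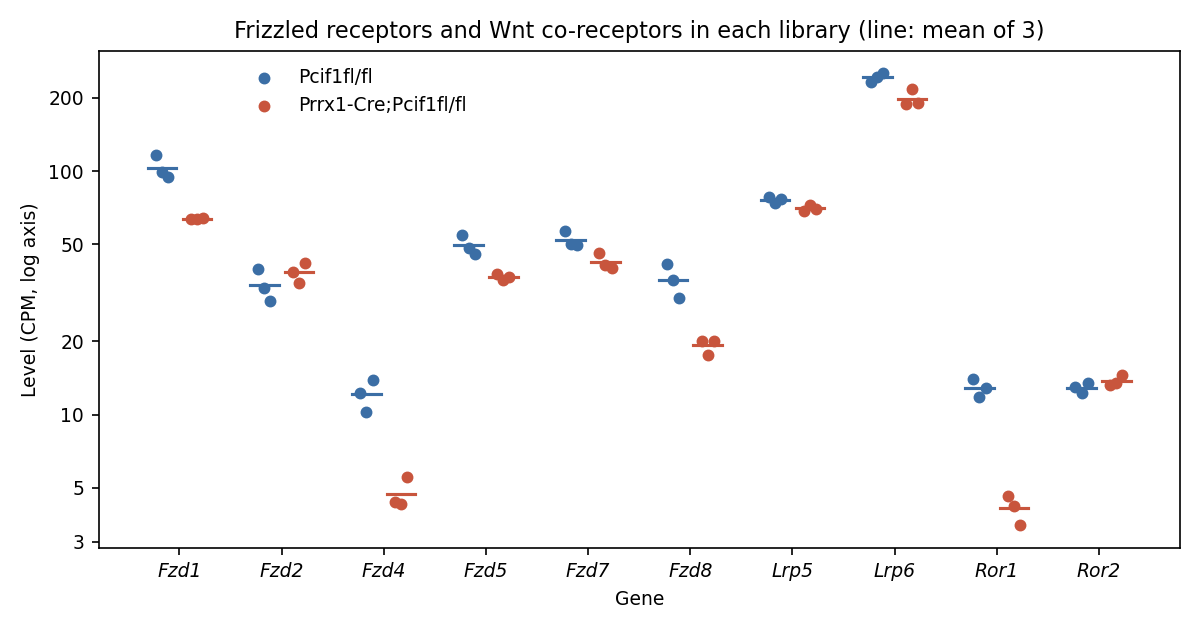
Level of each of the 10 genes in CPM (log axis) in each of the 3 control (Pcif1fl/fl, blue) and 3 CKO (Prrx1-Cre;Pcif1fl/fl, red) libraries, with a line at the mean of each group. Ror1 and Fzd4 show the widest gaps between the groups, while Fzd2 and Ror2 overlap.

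Fzd1, Fzd2 and Fzd7 form a subgroup of close relatives among the Frizzled receptors, and each has a coding transcript of 1 exon. Fzd1 (ENSMUSG00000044674, chr5:4753839-4758035 on GRCm38) was at 116, 98.8 and 94.2 CPM in control replicates 1 to 3 and 63.5, 63.5 and 64.3 CPM in CKO replicates 1 to 3. All 3 CKO libraries lay below all 3 control libraries, and they were nearly equal to each other. CKO was at 61.9% of the control mean, a log2 fold change of -0.69 (SE 0.10, adjusted p = 0.00505, edgeR). Fzd2 (chr11:102604396-102608058) was at 39.7, 33.1 and 29.2 CPM in control and 38.5, 34.7 and 41.7 CPM in CKO, so the groups overlapped. Its log2 fold change was 0.17 (95% interval -0.14 to 0.49, adjusted p = 0.519, edgeR), and that interval lies above the whole interval of Fzd1, which ran from -0.92 to -0.46. The Fzd2 value was 0.081 without control replicate 3 and 0.30 without control replicate 1, and it passed the test in 0 of 14 settings. Fzd7 (chr1:59482424-59486955) was at 56.8, 50.4 and 49.5 CPM in control and 46.2, 41.3 and 39.8 CPM in CKO. Its groups did not overlap, but the log2 fold change of -0.30 (SE 0.11) did not pass the test (adjusted p = 0.145, edgeR). Without control replicate 3 it was -0.33 and passed (adjusted p = 0.0109). Counts of Fzd2 per count of Fzd1, a ratio within each library that needs no scaling, were 0.342, 0.335 and 0.310 in control and 0.606, 0.547 and 0.648 in CKO. The ratio was higher in every CKO library (exact permutation test, two-sided, p = 0.10, the smallest that 3 against 3 allows). Although these genes are relatives, 0 of the 153 pairs among 18 Wnt receptor genes shared a stretch of 50 identical bases in their coding transcripts.

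Fzd5 and Fzd8 form another subgroup, and both are known to take part in beta-catenin signaling. Fzd5 (chr1:64730558-64737751) was at 54.6, 48.3 and 45.6 CPM in control and 37.9, 35.7 and 36.8 CPM in CKO, without overlap. The log2 fold change was -0.43 (SE 0.10, adjusted p = 0.0432, edgeR), the weakest of the 5 calls. Fzd5 kept its call in 8 of 14 alternative settings: it was lost, among others, without control replicate 1 or 2 and without CKO replicate 1, 2 or 3, with an adjusted p of 0.101 to 0.185 and log2 fold changes of -0.45 to -0.35. The antisense gene Gm38058 covers 17.8% of the exonic bases of Fzd5, and how the counting used strand is not given in the sources used here. Fzd8 (chr18:9212163-9218136), a gene of 1 exon, was at 41.4, 35.5 and 30.0 CPM in control and 20.03, 17.6 and 20.01 CPM in CKO. The CKO libraries lay close together, and the lowest control library was well above them. The log2 fold change was -0.89 (SE 0.14, adjusted p = 0.0066, edgeR), at 54.0% of the control mean.

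Fzd4 is the receptor of norrin as well as of Wnt proteins, and is known from retinal vessels, where the membrane protein Tspan12 assists it. Fzd4 (ENSMUSG00000049791, chr7:89404355-89413134) was at 12.3, 10.3 and 13.8 CPM in control and 4.37, 4.28 and 5.53 CPM in CKO, from 279 to 385 and 86 to 115 counts per library. The highest CKO library lay 46% below the lowest control library. CKO was at 39.0% of the control mean, with a log2 fold change of -1.36 (SE 0.18, adjusted p = 0.00256, edgeR). Its partners were taken as a list of 4, of which 3 passed the filter and were tested gene by gene. Tspan12 was at 5.94, 6.65 and 7.28 CPM in control and 2.16, 1.79 and 3.13 CPM in CKO, a log2 fold change of -1.49 (SE 0.23, adjusted p = 0.00562, edgeR), and so was lower beside its receptor. Reck and Adgra2, which present Wnt7 proteins to Frizzled receptors, had log2 fold changes of -0.52 (adjusted p = 0.0556, edgeR) and -0.34 (adjusted p = 0.231, edgeR). Neither passed the test, although every CKO library was below every control library for Reck. Reck was called in 4 of 14 alternative settings, and without control replicate 3 all 3 tested partners were called lower (adjusted p = 0.00206 for Adgra2, edgeR). Ndp, the gene for norrin, had 0 to 3 counts per library and was not tested. The exonic bases of Tspan12 and Adgra2 overlap antisense genes over 2.96% and 1.26% of their length.

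Lrp5 and Lrp6 are the co-receptors of the beta-catenin branch, and inherited changes of Lrp5 are known to alter bone mass. Lrp5 (chr19:3584828-3686564) was at 78.2, 73.7 and 76.5 CPM in control and 68.8, 72.4 and 70.1 CPM in CKO. The groups did not overlap, but only 1.74% separated the lowest control from the highest CKO library. The log2 fold change of -0.11 (95% interval -0.30 to 0.079, adjusted p = 0.496, edgeR) did not pass the test, and with GC content and length offsets it was -0.014 (adjusted p = 0.927, edgeR). Lrp6 (chr6:134446476-134566965), the highest of the 10 genes in CPM, was at 233, 243 and 252 CPM in control and 188, 217 and 190 CPM in CKO. Every CKO library was lower, and the log2 fold change was -0.29 (SE 0.093, adjusted p = 0.107, edgeR). As for Fzd7, the call depended on control replicate 3, without which it was -0.26 and passed (adjusted p = 0.0157, edgeR). Lrp6 counts per Lrp5 count averaged 3.19 ± 0.184 (SD, n = 3) in control and 2.81 ± 0.159 (SD, n = 3) in CKO, and the groups overlapped (exact permutation test, two-sided, p = 0.20).

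Ror1 and Ror2 are receptor tyrosine kinase-like proteins that bind Wnt5a through a domain like that of the Frizzled receptors. Ror1 (ENSMUSG00000035305, chr4:100095791-100444765) was at 13.9, 11.8 and 12.9 CPM in control and 4.64, 4.23 and 3.51 CPM in CKO. The CKO libraries held 73 to 103 counts each and the control libraries 319 to 359, and the highest CKO library lay 60.6% below the lowest control library. CKO was at 32.1% of the control mean, a log2 fold change of -1.64 (SE 0.16, adjusted p = 0.000614, edgeR), the largest fall among the 10 genes. Ror2 (chr13:53109312-53286124) was at 13.0, 12.2 and 13.5 CPM in control and 13.3, 13.5 and 14.5 CPM in CKO, so its groups overlapped. Its log2 fold change was 0.096 (95% interval -0.17 to 0.36, adjusted p = 0.69, edgeR), and this interval lies wholly above that of Ror1, -2.00 to -1.27. Over the 14 settings the Ror2 value ran from 0.059 to 0.15, with 0 calls. Counts of Ror2 per count of Ror1 were 0.931, 1.04 and 1.05 in control, where the 2 genes had about equal counts, and 2.86, 3.20 and 4.14 in CKO. The ratio was higher in every CKO library (exact permutation test, two-sided, p = 0.10, the smallest possible).

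**Figure D2:**
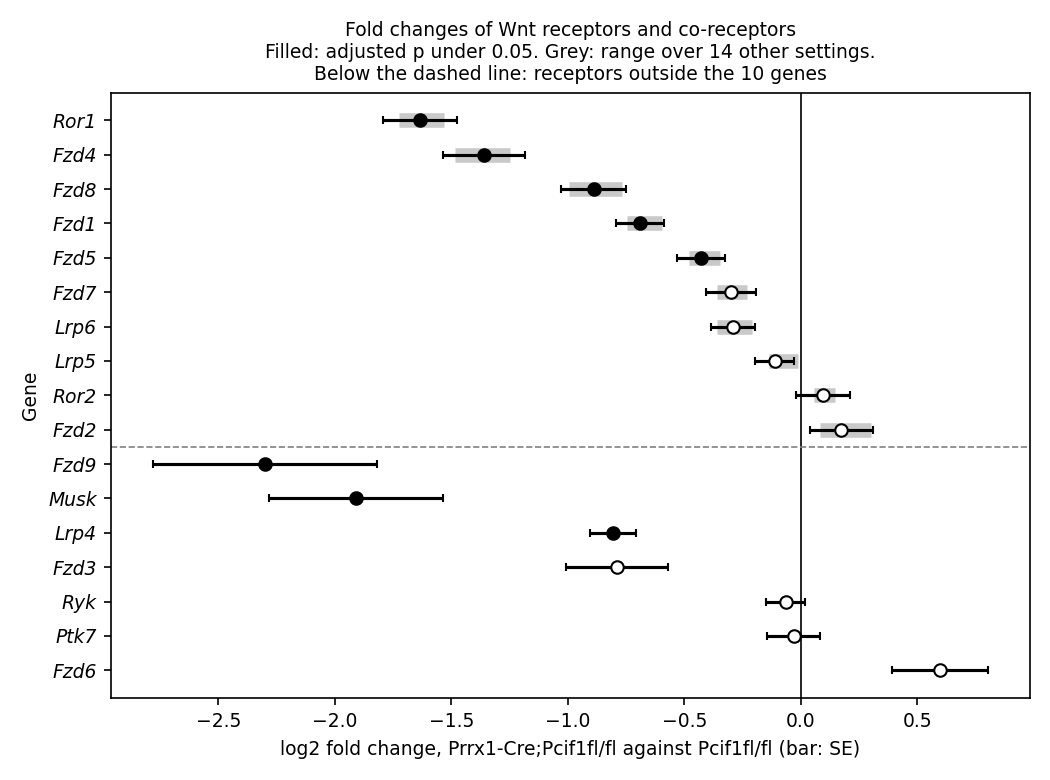
log2 fold change of CKO against control for 17 tested receptor genes, with bars for the SE and filled points for an adjusted p under 0.05; grey bands give, for the 10 genes, the range over 14 alternative settings. Ror1, Fzd4, Fzd8 and Fzd1 stayed below 0 in every setting, their value nearest to 0 being -0.60 for Fzd1. Fzd5, Fzd7, Lrp6 and Lrp5 also stayed below 0, with values nearest to it of -0.35, -0.23, -0.21 and -0.014. Fzd2 and Ror2 stayed above 0.

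Of 8 further Wnt receptor genes, 7 were tested, and 3 were lower and 0 higher (median log2 fold change -0.79). The median was -0.42 with DESeq2, -0.43 with no filter and -0.42 with a filter at a mean of 10 counts, each with other genes included. At an unadjusted p under 0.05 the count of higher genes was 1, Fzd6. Lrp4, a relative of Lrp5 that binds sclerostin and, with MuSK, agrin, was at 71.4, 67.9 and 61.9 CPM in control and 39.3, 39.5 and 36.2 CPM in CKO. It was lower without overlap, with a log2 fold change of -0.81 (SE 0.099, adjusted p = 0.00194, edgeR). Musk, the receptor kinase of the nerve-muscle contact, fell by 1.91 on the log2 scale from a low level (26 to 51 counts per control library and 6 to 11 per CKO library, adjusted p = 0.018, edgeR). Fzd9 had 12 to 16 counts per control library and 2 to 3 per CKO library (adjusted p = 0.0244, edgeR), and the ratio of summed counts, scaled to library size, was 0.197 (95% interval 0.0747 to 0.440, exact, for counting error only). Fzd3 and Fzd6, both known from planar cell polarity, had log2 fold changes of -0.79 (adjusted p = 0.07, edgeR) and 0.60 (adjusted p = 0.133, edgeR). Fzd3 was called lower in 2 of 14 settings, by DESeq2 and without control replicate 3, and Fzd6 in 0. Fzd6 lay higher in every CKO library, at 2.48 to 2.98 CPM against 1.66 to 2.01 CPM, without passing the test. Ryk and Ptk7, Wnt receptors or co-receptors with inactive kinase domains, were abundant at 72.5 to 80.8 CPM and 118 to 157 CPM over all libraries and had log2 fold changes of -0.064 (adjusted p = 0.71, edgeR) and -0.030 (adjusted p = 0.908, edgeR). Fzd10 had 6 to 9 counts per library and was not tested. The call of Musk was lost without control replicate 2 and without CKO replicate 1 or 3 (adjusted p up to 0.101, edgeR), and that of Fzd9 with the replicate block, without control replicate 1 and without CKO replicate 1, 2 or 3 (adjusted p up to 0.128, edgeR), while a filter at a mean of 10 counts removed Fzd9.

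Levels of different genes were compared as CPM per kilobase of annotated exon. In control libraries the order of the 10 genes was Fzd1 (mean 24.5 CPM per kilobase), Lrp6 (17.7), Fzd7 (11.5), Fzd2 (9.28), Lrp5 (7.82), Fzd5 (7.16), Fzd8 (5.96), Ror2 (3.04), Ror1 (2.23) and Fzd4 (1.80). Fzd2, Lrp5, Fzd5 and Fzd8 overlapped their neighbours in this order, as did Ror1 and Fzd4, and the other steps were free of overlap. In CKO libraries the order was Fzd1 (15.2), Lrp6 (14.5), Fzd2 (10.5), Fzd7 (9.36), Lrp5 (7.23), Fzd5 (5.32), Ror2 (3.25), Fzd8 (3.22), Ror1 (0.716) and Fzd4 (0.703). The pairs Fzd1 and Lrp6, Fzd2 and Fzd7, Ror2 and Fzd8, and Ror1 and Fzd4 overlapped there. Ranks of Lrp5 and Lrp6 depended on the length used: per kilobase of the longest coding transcript, Lrp6 came to 25.9 and Lrp5 to 14.7 CPM per kilobase in control libraries, which placed them above Fzd1 and Fzd7 respectively.

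The summed level of all 10 Frizzled genes of the mouse was 68.7, 59.2 and 56.1 CPM per kilobase in control and 46.2, 43.4 and 46 CPM per kilobase in CKO libraries. CKO was at 73.7% of control, and all CKO libraries lay below all control libraries (log2 ratio -0.44, exact permutation test, two-sided, p = 0.10). Of the summed difference in level, Fzd1 made up 57.9%, Fzd8 17%, Fzd7 13.4%, Fzd5 11.4% and Fzd4 6.83%, while Fzd2 went the other way. With 3 libraries against 3, no share of a gene in the Frizzled total could pass a threshold of 0.05 by the exact permutation test. The share of Fzd1 was 40.0% ± 0.231 (SD, n = 3) in control and 33.6% ± 1.07 (SD, n = 3) in CKO, and that of Fzd2 was 15.1% ± 0.787 and 23.1% ± 1.48. Fzd8 went from 9.69% to 7.11% and Fzd4 from 2.97% to 1.55%, each without overlap. The shares of Fzd7 (18.8% and 20.7%) and of Fzd5 (11.7% and 11.8%) overlapped between the groups. Each of these shares was tested by the exact permutation test, which gave p = 0.10 for Fzd1, Fzd2, Fzd8 and Fzd4, p = 0.20 for Fzd7 and p = 0.50 for Fzd5. The summed level of Lrp5 and Lrp6 was 25.1, 25.3 and 26.3 CPM per kilobase in control and 20.8, 23.3 and 21.1 in CKO (85.0% of control, exact permutation p = 0.10), and that of Ror1 and Ror2 was 5.48, 4.93 and 5.41 against 3.94, 3.93 and 4.03 (75.2%, exact permutation p = 0.10).

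**Figure D3:**
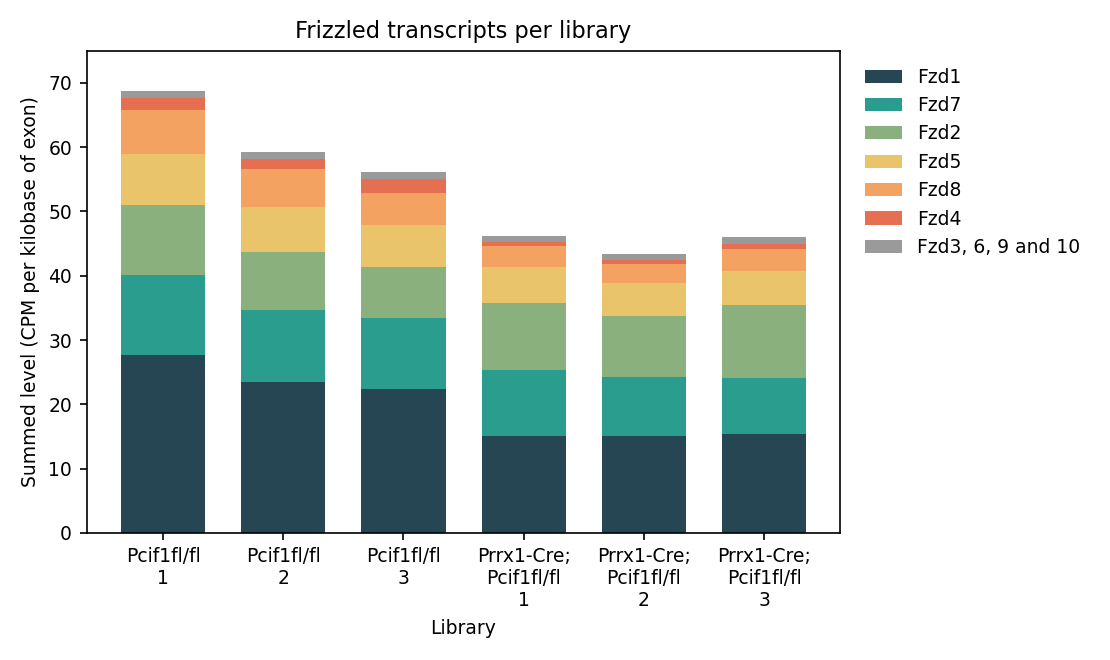
Summed level of the Frizzled genes in CPM per kilobase of exon in each control (Pcif1fl/fl) and CKO (Prrx1-Cre;Pcif1fl/fl) library, stacked by gene. The control bars reach 56.1 to 68.7 and the CKO bars 43.4 to 46.2, with a narrower Fzd1 segment and a Fzd2 segment of similar height.

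The profiles of the 10 genes over the 6 libraries were compared by the root mean square difference of log2 CPM centred on each gene's mean. By this measure Fzd5 and Fzd7 were nearest to each other (0.0817), as were Lrp5 and Lrp6 (0.113) and Fzd1 and Fzd8 (0.127). The nearest of Fzd4 was Ror1, and the reverse, at 0.289. The nearest of Fzd2 was Ror2 (0.162), and that of Ror2 was Lrp5 (0.116).

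The genes that meet these receptors at the cell surface were described by lists, without a test of the lists. Over all genes tested, 4.51% were called lower and 2.88% higher, and the list counts here and below stand beside those shares. Among 15 tested surface regulators, 3 were lower, 1 was higher, and the median log2 fold change was -0.013. Rspo2 and Rspo3, secreted R-spondins that keep Frizzled receptors and Lrp6 on the membrane, had log2 fold changes of -1.60 (adjusted p = 0.000234, edgeR) and -2.21 (adjusted p = 0.00174, edgeR). Rspo2 was at 135 to 156 CPM in control and 39.9 to 51 CPM in CKO. The R-spondin receptor Lgr5 was lower (log2 fold change -1.47, adjusted p = 0.00204, edgeR) and its relative Lgr6 higher (log2 fold change 1.13, adjusted p = 0.0393, edgeR), the latter from 1.22 to 2.02 CPM to 2.94 to 4.33 CPM. Lgr6 lost its call in 6 of 14 settings, among them without each library other than control replicate 3 (adjusted p up to 0.166, edgeR). Of 6 tested secreted Wnt binders, 3 were lower and 0 higher: Sfrp1 (log2 fold change -2.53, from 582 to 732 CPM down to 99.3 to 130 CPM), Sfrp4 (-1.64) and Sfrp2 (-1.10), which hold Wnt proteins away from Frizzled receptors. Their adjusted p-values by edgeR were 5.23e-05, 0.000282 and 0.00121. At an unadjusted p under 0.05, 0 of the 6 were higher, against 9.56% of all genes tested. With only 6 genes, a count of 0 lies near that share.

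Of 9 tested Wnt ligands, 2 were lower (Wnt11, log2 fold change -1.68, adjusted p = 0.00437, and Wnt4, -1.97, adjusted p = 0.00605, edgeR) and 1 was higher. The higher ligand was Wnt5a, the ligand of the Ror proteins, at 49.3, 47.5 and 47.6 CPM in control and 69.2, 57.1 and 70.2 CPM in CKO (log2 fold change 0.45, SE 0.11, adjusted p = 0.0415, edgeR). The call of Wnt5a was close to the threshold and was made in 8 of 14 alternative settings; it was lost without control replicate 1 or 2 and without CKO replicate 1 or 3, among others, with an adjusted p of up to 0.202. Of 24 tested genes of the intracellular relay to beta-catenin, 2 were lower, Tcf7l1 (-1.19, adjusted p = 0.0085, edgeR), a repressor of Wnt targets, and Pygo1 (-1.03, adjusted p = 0.0101, edgeR), which binds the beta-catenin complex. Tcf7l1 was no longer called without CKO replicate 2 or 3, nor Pygo1 without CKO replicate 1 or 3 (adjusted p up to 0.0549 and 0.0626, edgeR). The other 22 genes did not pass the test, and the list's median log2 fold change was -0.043. The share called lower was 8.33% in this list, against 4.51% of all genes tested. Of 12 tested target genes of beta-catenin, 4 were lower and 1 higher: Nkd1 (-2.90, adjusted p = 0.000283, edgeR) and Nkd2 (-1.40, adjusted p = 0.00031, edgeR), which dampen the pathway, Lgr5 and Tnfrsf19 (-1.64, adjusted p = 0.0192, edgeR) were lower, and Ccnd1, a cyclin, was higher (0.71, adjusted p = 0.00248, edgeR). Tnfrsf19 was no longer called without control replicate 1 or 2, nor without CKO replicate 1 or 2 (adjusted p up to 0.0743, edgeR). The median of these targets was 0.097. Of 29 tested genes of the Ror and planar polarity branch, 5 were lower and 1, Wnt5a, was higher, with a median of -0.064. Fat4, a giant cadherin, was at 95 to 135 CPM in control and 53.4 to 57.7 CPM in CKO (log2 fold change -1.03, adjusted p = 0.00245, edgeR), and Vangl2, a core polarity protein, had a log2 fold change of -0.83 (adjusted p = 0.0169, edgeR). Vangl2 was no longer called without control replicate 1 and without CKO replicate 1 or 2 (adjusted p up to 0.0956, edgeR). Wnt11, Daam2 (log2 fold change -0.61, adjusted p = 0.0298, edgeR) and Prickle2 were the other lower genes of this list, which shares Wnt11 and Wnt5a with the ligands. Daam2 lost its call without control replicate 1 and without CKO replicate 1, 2 or 3 (adjusted p up to 0.134, edgeR). Prickle2 was called in 6 of 14 settings, and in no fit that left out a library other than control replicate 3 (adjusted p up to 0.208, edgeR).

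**Figure D4:**
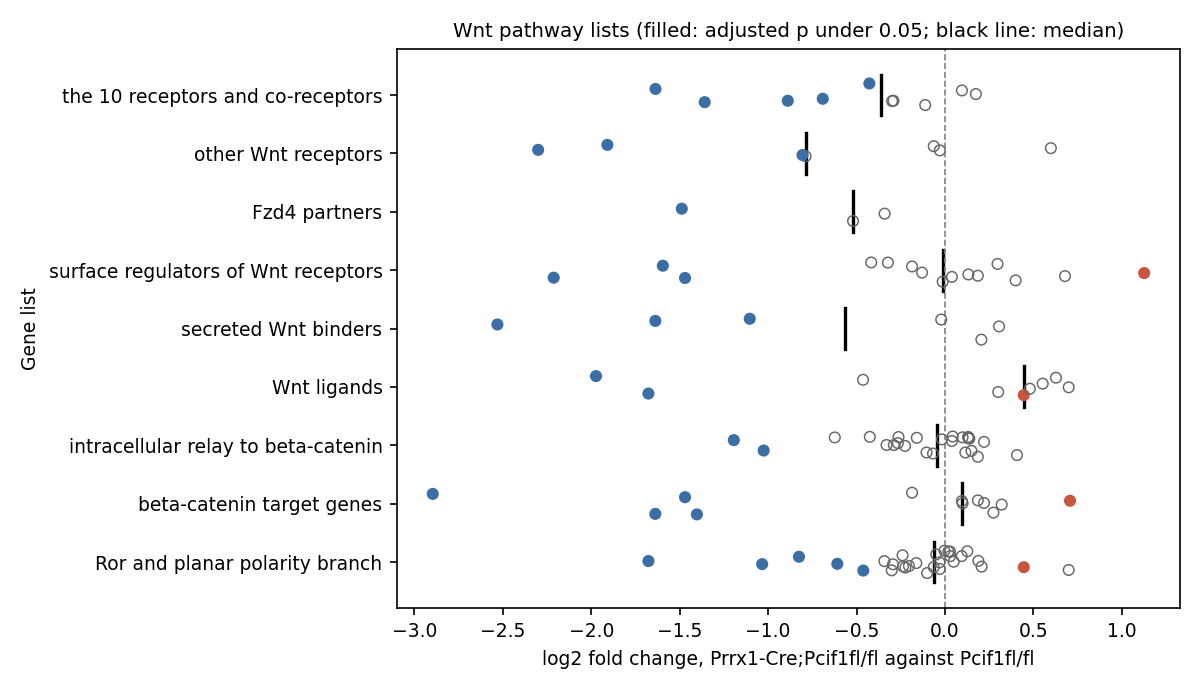
log2 fold change of CKO against control for every tested gene of 9 Wnt lists, filled where the adjusted p was under 0.05 (blue lower, red higher), with a black line at the median of each list. The 10 receptors and co-receptors have 5 filled points below 0 and none above, and the relay list has 2 filled points among 24.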

How the data were processed

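The authors deposited raw read counts for each gene; they mapped reads from a poly(A) library kit to mm10 with HISAT2, per the submitters' processing notes, and used DESeq2. How reads were counted (tool, annotation, strand) is not given in the sources used here. Of other named genes of the pathway lists, antisense genes cover 23.4% of the exonic bases of Ccnd1, 16.1% of Sfrp2 and 13.1% of Rspo3. They cover 8.80% for Wnt11, 8.68% for Fat4, 4.58% for Wnt5a, 4.56% for Tcf7l1 and 3.15% for Fzd6. The labels give 3 libraries per genotype, although the deposited design text speaks of duplicates. Duplicate IDs made up 92 of 20163 rows and carried equal counts, so 20071 IDs were used, of which GENCODE M21 (GRCm38, the assembly also called mm10) held 20059 for positions, lengths and overlaps. Start sequences came from a set of RefSeq promoters, GRCm38.p6.

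Counts were tested by the functions glmQLFit and glmQLFTest of edgeR 4.0.16 in R 4.3.3 (filterByExpr, TMM scaling, no covariate), with Benjamini-Hochberg adjustment over 13733 genes and a threshold of 0.05. SEs were derived from each log2 fold change and its F statistic. Single values were compared by the exact two-sided permutation test. The interval on summed counts covers counting error only and leaves out the spread between libraries. Reads carry no molecular identifiers, so repeated copies of 1 molecule could make even that interval too narrow. Alternatives were DESeq2 1.42.0, limma-voom (limma 3.58.1), RLE or total-count scaling, no expression filter, or one at 10 counts on average, replicate number as a block, GC content and length offsets, and each library left out in turn. The use of the longest coding transcript for summed levels, and the alternatives for pathway lists and their genes, were added after seeing the data. Simulated counts with known changes were used to test the scripts.

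The 10 genes and the lists were chosen with earlier results of these data known. Named were all 10 genes, all tested genes of the further receptors and the Fzd4 partners, up to 4 called genes of each other pathway list with the smallest p, the 5 genes with the profile nearest to Fzd4 at a mean of at least 1 CPM, and Pcif1 and sex-linked genes as checks. Tnfrsf19, Daam2 and Prickle2 in the lists, and the markers Eng, Pdgfra and Plin1, were named after their values were seen.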

Additional observations from a re-analysis of the deposited data

How the results depend on the processing

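Of 197 alternative values for the 10 genes and the summed levels, 188 kept their direction and their side of the threshold or stayed within 1.5 times or 1 SD, and 0 reversed. With a log2 fold change of at least 1 asked for as well, 2 genes were lower in place of 5. Leaving out 1 library gave 4 to 7 lower genes. Fzd1, Fzd4, Fzd8 and Ror1 were called in all 14 settings, with adjusted p-values up to 0.0422, 0.0234, 0.0481 and 0.00752. With the replicate number as a block, 4 genes were lower and the log2 fold change of Fzd5 was -0.42 (adjusted p = 0.0901, edgeR). Deviations of same-numbered libraries from the group means correlated at 0.054, -0.044 and -0.015, and those of differently numbered libraries at -0.040 to 0.050. With 3 libraries per genotype, these values cannot decide whether the numbers pair the samples. Counts over all genes depended on the libraries: 620 were lower and 396 higher, against 1447 and 1544 without control replicate 3, 324 and 148 without CKO replicate 1, 349 and 172 without CKO replicate 2, 328 and 149 without CKO replicate 3, and 440 and 196 without control replicate 2. The block gave 503 and 267, GC content and length offsets gave 671 and 691, and DESeq2 gave 830 and 593; the cause was not tested. Total-count scaling moved the median of all genes to -0.021, and the offsets moved it to 0.035. Without 1 library the Fzd4 partners held 1 to 3 lower genes (1 with all), the further receptors held 1 to 4 (3), the relay list 0 to 3 (2), the Ror and planar polarity branch 2 to 5 (5), the surface regulators 0 to 4 higher genes (1) and the target genes 1 to 4 (1). The highest of each came without control replicate 3. The lowest came without CKO replicate 1 or 3 for the further receptors, without CKO replicate 3 for the relay, and without control replicate 1, CKO replicate 1 or CKO replicate 2 for the Ror branch. For the surface regulators and the target genes it came when any library other than control replicate 3 was left out. Of 0 higher genes among the 10, DESeq2 and limma-voom called 0 as well. For Fzd9 and Fzd10, fewer than 20 counts per library limit what can be detected.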

Other observations

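The 5 genes whose profile over the 6 libraries lay nearest to that of Fzd4, among 12631 genes compared, were Fndc1, Tle2, Shroom3, S100b and Afap1l2, at root mean square differences of 0.0896, 0.107, 0.107, 0.121 and 0.124 on the log2 scale. Fndc1, a protein with fibronectin repeats, was at 17.9 ± 2.65 CPM (SD, n = 3) in control and 7.16 ± 0.842 CPM (SD, n = 3) in CKO libraries, a log2 fold change of -1.32 (adjusted p = 0.00191, edgeR). Tle2, a Groucho-type co-repressor, was at 29.0 ± 3.36 CPM and 11.4 ± 2.67 CPM. The log2 fold changes of Shroom3, which shapes epithelial cells, S100b, a calcium-binding protein, and Afap1l2 were -1.22, -1.45 and -1.22. Ror1, the nearest of the other 9 receptor genes, lay at 0.289 by the same measure. These genes were picked for their likeness to Fzd4, so their fold changes are a description.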
